A study of Homo sapiens with 26 samples.

Results

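Ribosome footprints of HEK293FT cells were counted in a library depleted of ribosomal RNA with custom oligos and in a library that was left undepleted. These are 2 of the 26 libraries of the series, taken by their labels as the whole of 1 of its 4 count tables. HEK293FT is a human embryonic kidney line, and the cells carried no other treatment in the labels beyond cycloheximide in the lysis buffer. Both libraries were made from RNase I monosome fragments labelled 15 to 35 nt and differ in the labels by depletion alone. The sequences of the custom oligos and the way they remove rRNA are not given in the sources used here. Each side is 1 library, so no value below has a replicate error and no test of the conditions was made. Replicate libraries of the other tables (HEK293T and K562, a leukaemia line) are used to show how far 2 libraries of 1 kind differ. A few kit ratios of those tables, against their own undepleted libraries, are set beside this pair. KCNH8, CCNC and FAM53A were picked from those tables.

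Ribosome profiling sequences the short stretches of mRNA that a ribosome shields from nuclease, so that reads in a coding sequence report on its translation. The same digestion cuts the ribosome's own RNA into fragments of similar size, and depletion removes these so that more of the sequencing falls on mRNA. Mitochondria translate their own small set of mRNAs, all for subunits of the respiratory chain and ATP synthase, on ribosomes separate from those of the cytosol. All but one of these mRNAs are encoded on the heavy strand of the mitochondrial genome. The exception is MT-ND6, on the light strand. Each mitochondrial coding sequence is called an mRNA here, although overlapping ones can share an mRNA, as given below.

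The undepleted library held 900763 counts on coding sequences and the custom oligo library 5747772, which is 6.38-fold more. Levels are given as CPM, the count over the library's total scaled to a common depth. The log2 ratio is the level with custom oligos over the level without. Intervals given with it are exact 95% binomial intervals that cover counting error only. Of 8 markers of HEK293 lines, 7 were detected undepleted and 8 with custom oligos. Among them the intermediate filament gene VIM had 784 and 5299 counts (870 and 922 CPM), and the neurofilament genes NEFL and NEFM had 92 and 97 counts undepleted. PAX2 was at 0 and 6 counts and SOX11 at 1 and 4. Of 16 markers of K562, 10 were at 0 in both libraries, the globin genes HBG1, HBG2 and HBE1 and the erythroid factor GATA1 among them, and the whole list summed to 7 and 54 counts. Of 3 lymphocyte genes 2 were at 0 in both, CD3E and PTPRC. COL1A1, a fibroblast collagen, had 28 and 153 counts.

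Most coding sequences had nearly the same level in both libraries. Of the 548 with a mean of at least 1000 counts, 97.8% lay within 1.2-fold and none lay past 1.5-fold. A ratio of at least 1.2-fold higher with custom oligos was seen in 11 of them (2.01%), and 8 of those 11 were mitochondrial mRNAs. Only PTMA lay at least 1.2-fold lower (0.182%). The counting interval lay wholly above 0 in 35 (6.39%) and wholly below 0 in 32 (5.84%). Such an interval compares these 2 libraries and not the conditions. Over the 5225 coding sequences averaging at least 100 counts, the median log2 ratio was 0.0018, 51 were at least 1.5-fold higher (0.976%) and 17 at least 1.5-fold lower (0.325%). The 51 higher ones had a median of 24 and at most 60 counts in the undepleted library. The mean is of raw counts, so whether a coding sequence is included rests mostly on the deeper library. At a mean of at least 20 counts, 591 were higher and 364 lower. With at least 1 count in each library as the only limit, 1132 were higher and 1399 lower. That limit drops coding sequences at 0 undepleted, so it tilts the numbers to the lower side. Which side is larger depends on the limit, so the larger number on the higher side is not read as a direction. The SD of the log2 ratio beyond counting error was 0.0585, against 0.019 to 0.114 in the 8 replicate pairs of the other tables. The larger values came from HEK293T pairs, on only 213 to 710 coding sequences. The K562 pairs, on 2150 to 6566, gave 0.028 to 0.046. The pair was thus further apart than every K562 replicate pair and within the range of the shallower HEK293T ones.

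**Figure D1:**
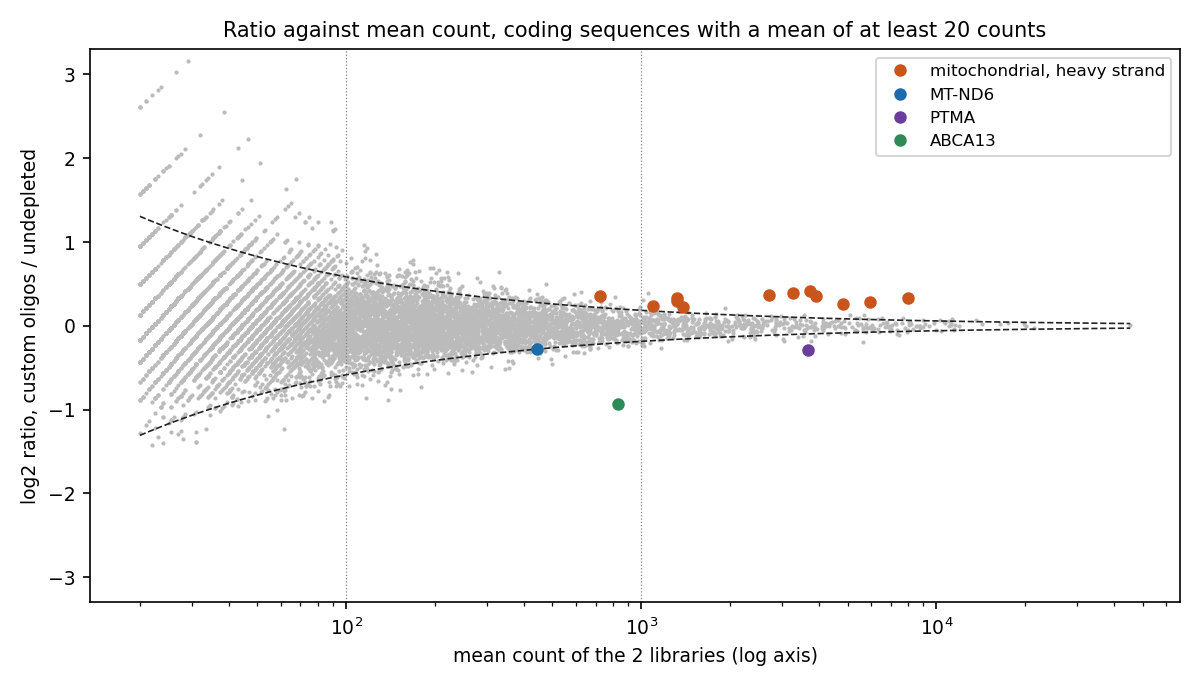
Log2 ratio of custom oligos over undepleted (y axis) against the mean count of both libraries (x axis, log scale) for coding sequences with a mean of at least 20 counts. Dashed lines mark the range that counting error gives 95% of the time about 0 (normal approximation), dotted lines mark means of 100 and 1000 counts, and the 12 heavy-strand mitochondrial mRNAs lie above 0 at 0.22 to 0.41 while MT-ND6, PTMA and ABCA13 lie below.

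The mitochondrial mRNAs formed the list furthest from 0. All 12 heavy-strand mRNAs were higher with custom oligos, by 1.16- to 1.33-fold, with a median log2 ratio of 0.33 and a counting interval above 0 in each of the 12. Of the 5225 coding sequences, 150 had such an interval (2.87%) and 168 had one below 0 (3.22%). Of the 11 heavy-strand mRNAs averaging at least 1000 counts, 8 were at least 1.2-fold higher, against 11 of all 548 such coding sequences (2.01%). The 13 mRNAs together made up 0.962% of the undepleted library (95% interval 0.942% to 0.982%) and 1.198% of the custom oligo library (1.19% to 1.21%), which is 1.25-fold more (1.22 to 1.27). Over all 5225 coding sequences the ratio was above 0 in 50.3% and below 0 in 49.7%.

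Among the subunits of complex I, the NADH dehydrogenase, MT-ND5 (GRCh38 chrM:12337-14148) had the highest ratio. It had 789 counts undepleted and 6692 with custom oligos, or 876 and 1164 CPM, a log2 ratio of 0.41 (0.30 to 0.52). MT-ND4L had 158 and 1286 counts (0.35), MT-ND2 294 and 2352 (0.33), and MT-ND4 300 and 2348 (0.29). The lowest of the heavy strand were MT-ND1, with 256 and 1931 counts (0.24), and MT-ND3, with 328 and 2438 (0.22, 0.05 to 0.39). Their intervals overlap that of MT-ND5, so this order within complex I is not resolved at this depth. MT-ND6 (chrM:14149-14673, minus strand) went the other way, with 141 and 745 counts, 157 and 130 CPM, and a log2 ratio of -0.27 (-0.53 to -0.0021). It was the only member of the list with a lower level. The upper end of its interval is so near 0 that TMM scaling, which moves every ratio up by 0.020, takes it above 0. MT-ND5 and MT-ND6 are neighbours on opposite strands, and whether the counting used strand is not given in the sources used here.

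MT-CYB, the mitochondrial subunit of complex III, had 859 and 6989 counts (954 and 1216 CPM, log2 ratio 0.35). The subunits of complex IV, cytochrome c oxidase, had the most counts. MT-CO1 had 1779 and 14300 counts, or 1975 and 2488 CPM (0.33, 0.26 to 0.41). MT-CO2 had 1354 and 10550 counts (0.29) and MT-CO3 had 1119 and 8541 (0.26, 0.17 to 0.35). The intervals of these 4 overlap as well. The ATP synthase subunits MT-ATP6 and MT-ATP8 had 699 and 5848 counts (0.39, 0.28 to 0.51) and 587 and 4853 counts (0.37, 0.25 to 0.50).

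MT-ATP8 and MT-ATP6 lie on 1 mRNA and overlap at chrM:8527-8572 on the plus strand, a stretch of 46 bases that makes up 22.2% of the MT-ATP8 coding sequence. MT-ND4L and MT-ND4 share 7 bases in the same way. How reads in these stretches were assigned is not given in the sources used here, so the values within each pair are not fully separate. The first overlap is printed because it shows both reading frames at once, with the start codon of MT-ATP6 and the stop codon of MT-ATP8 in capitals:
MT-ATP8 and MT-ATP6 overlap: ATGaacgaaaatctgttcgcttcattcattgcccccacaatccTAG

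Per kilobase of coding sequence, the mitochondrial levels in the undepleted library ran from 242 CPM for MT-ND4 to 3148 CPM for MT-ATP8. MT-CO2 followed MT-ATP8 with 2198 CPM per kilobase and MT-CO3 with 1585, and MT-ND6 was at 298, next to MT-ND1 at 297. With custom oligos MT-ATP8 remained highest (4079 CPM per kilobase), and MT-ND6 became the lowest of the 13 at 247, below MT-ND4 at 296.

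**Figure D2:**
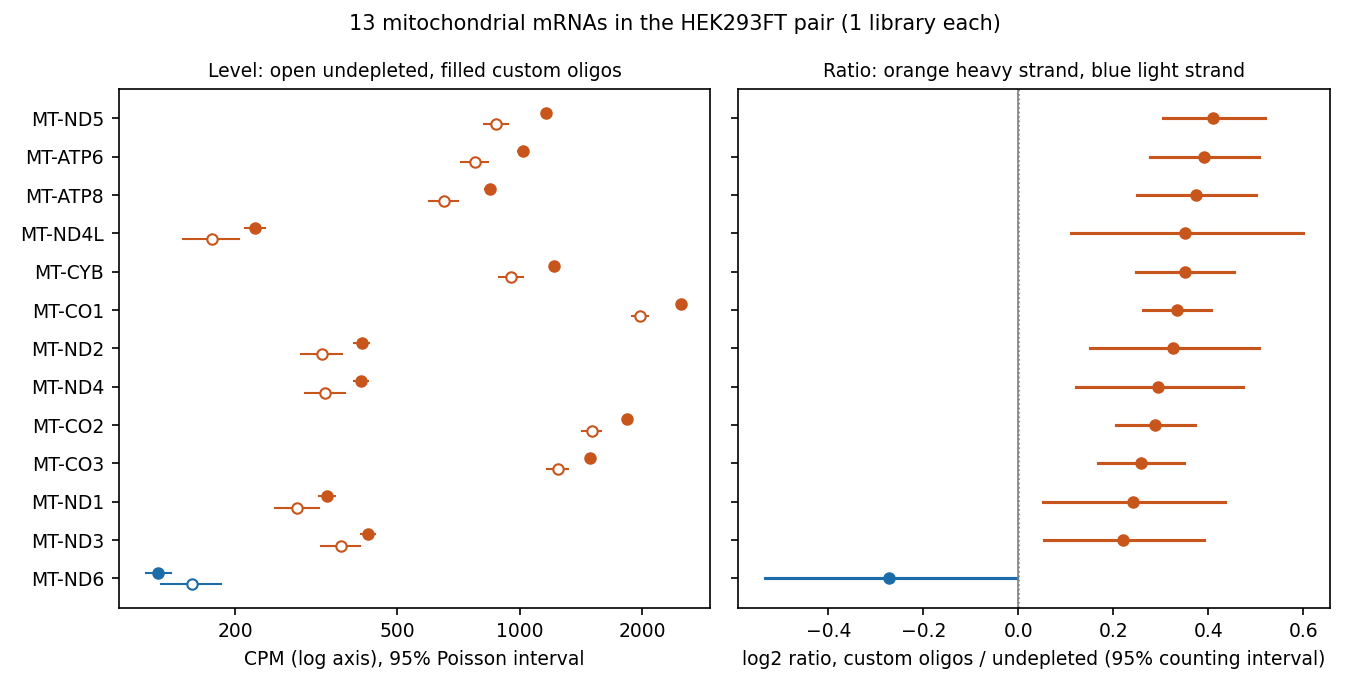
Left, level of each of the 13 mitochondrial mRNAs in CPM (x axis, log scale) in the undepleted library (open) and the custom oligo library (filled), with exact 95% Poisson intervals. Right, log2 ratio with its 95% counting interval. The 12 heavy-strand mRNAs (orange) lie between 0.22 and 0.41, and MT-ND6 (blue) lies at -0.27. The dotted line is the median of all coding sequences averaging 100 counts or more.

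The difference was set beside replicate libraries of the other tables, which have other cells, sizes or depths. Summed over the 12 heavy-strand mRNAs, the custom oligo pair differed by a log2 ratio of 0.33 (0.29 to 0.36). The 8 replicate pairs differed by 0.031 to 0.52 in absolute value. The largest was the pair of HEK293T NEBNext libraries (666 against 1437 counts), and the next was the pair of HEK293T RiboCop libraries at 0.23. The 4 K562 replicate pairs differed by 0.031 to 0.12. The mitochondrial difference of the custom oligo pair was thus larger than in 7 of 8 replicate pairs and smaller than in 1. For MT-ND6 the replicate pairs differed by 0.011 to 1.407, with only 4 and 16 counts behind the widest, so its -0.27 is inside their range. Against their own undepleted libraries, the summed heavy-strand ratio was -0.53 (-0.63 to -0.43) for Ribo-Zero Gold in HEK293T, 0.018 (-0.088 to 0.12) for RiboCop in HEK293T and 0.17 (0.15 to 0.18) for riboPools in K562. These values are set side by side and their differences were not tested.

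The 12 heavy-strand coding sequences are poor in G and that of MT-ND6 is rich in it. G made up 6.28% of the bases in MT-ATP8 and 16.2% in MT-CO1, the lowest and highest of the 12, against 35.6% in MT-ND6. The first 90 bases of MT-ND5 and of MT-ND6 are printed to show this contrast, followed by the stretch of 90 bases with most purines in PTMA (bases 154 to 243 of its coding sequence, 90% purine), the only well-covered coding sequence past 1.2-fold lower. They are read 5′ to 3′ from GENCODE 29 on GRCh38, with every G in capitals:
MT-ND5: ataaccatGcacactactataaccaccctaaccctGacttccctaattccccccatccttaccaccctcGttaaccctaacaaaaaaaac
MT-ND6: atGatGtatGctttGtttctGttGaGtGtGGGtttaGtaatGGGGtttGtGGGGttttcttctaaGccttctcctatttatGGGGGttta
PTMA: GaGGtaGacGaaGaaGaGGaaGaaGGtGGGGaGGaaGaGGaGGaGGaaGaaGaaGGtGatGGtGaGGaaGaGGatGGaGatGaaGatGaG

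The MT-ND5 stretch holds 3 G, the MT-ND6 stretch 27 and the PTMA stretch 45. Over the whole coding sequence G made up 10.6% in MT-ND5, 35.6% in MT-ND6 and 37.8% in PTMA. The MT-ND5 stretch is thus poorer in G than the whole (3.33%) and the PTMA stretch richer (50%). Among 511 nuclear coding sequences averaging 1000 counts or more, the ratio was lower where the share of G was higher, with a Spearman correlation of -0.27. Split by rank of G into 4 groups of near equal size, the group with least G (19.0% to 25.2%) had a median log2 ratio of 0.034, and 67.2% of its members were higher with custom oligos. The group with most G (30.0% to 39.4%) had a median of -0.027 with 35.2% higher. The correlation with the share of purines was -0.24, with GC content -0.046 and with coding length 0.024. These are correlations across genes of 1 pair of libraries, and genes share the library and are not replicates. G and purine shares were chosen after seeing the data. A correlation of this size also occurred between replicates. Above a mean of 500 counts it was -0.25 in the custom oligo pair (1143 nuclear genes) and -0.26 between the 2 FastSelect libraries of K562 (984 genes), while the other K562 replicate pairs gave -0.079, -0.039 and 0.13. Against undepleted libraries it was 0.19 for riboPools in K562 (1413 genes), -0.52 for Ribo-Zero Gold in HEK293T (137 genes) and -0.00085 for RiboCop in HEK293T (73 genes). The relation with G was thus no larger than between the FastSelect replicates and larger in size than in the other K562 replicate pairs. Its source was not tested.

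**Figure D3:**
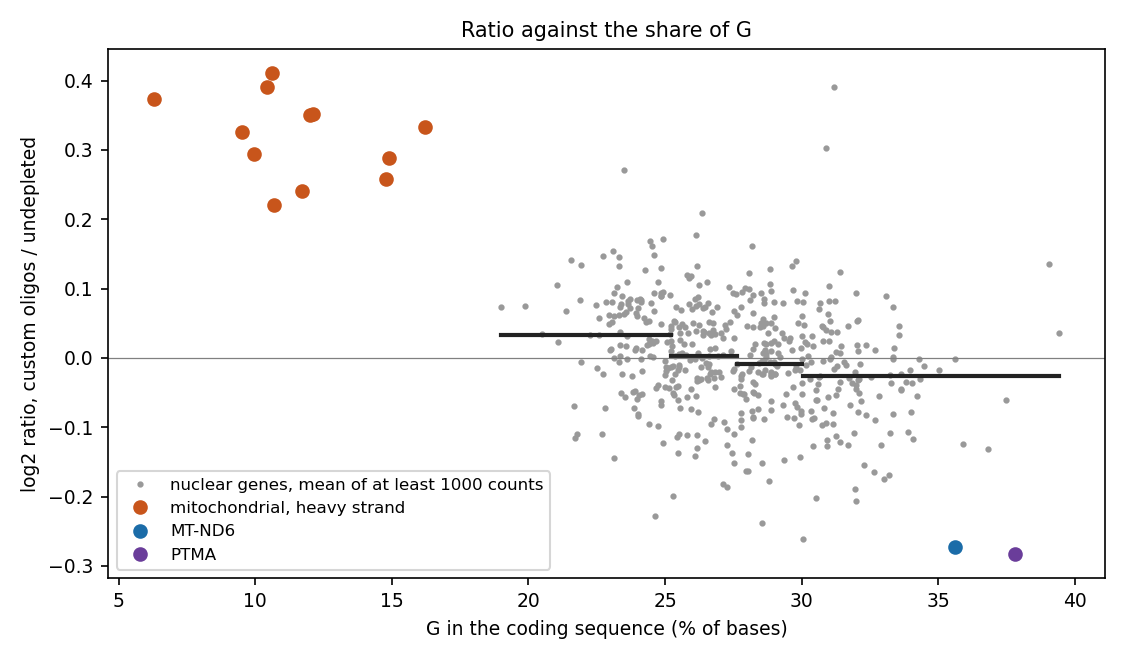
Log2 ratio of custom oligos over undepleted (y axis) against the share of G in the coding sequence (x axis, % of bases) for nuclear genes averaging 1000 counts or more and the 13 mitochondrial mRNAs. Black bars are the medians of the 4 groups of nuclear genes by share of G, from 0.034 to -0.027, and the 12 heavy-strand mRNAs lie at 6.28% to 16.2% G, apart from all the nuclear genes shown.

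Across 22 lists of functional classes no other list had a median past 0.1. The nearest to the mitochondrial one on the upper side was that of replication-dependent histones, at 0.028, and the furthest on the lower side was that of acidic histone chaperones and nucleolar proteins, at -0.065. The medians of 9 of the 22 lists, all within 0.022 of 0, changed sign under another scaling, sum or minimum count and have no firm direction: small ribosomal subunit proteins, mitochondrial ribosomal proteins, initiation factors, cytosolic aminoacyl-tRNA synthetases, the CCT chaperonin, cholesterol synthesis, the integrated stress response, the replication fork and selenoproteins.

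In the translation machinery, 27 of 47 large ribosomal subunit proteins were higher and 20 lower, with a median of 0.011. RPL10, with most counts, had 3180 and 19818 (log2 ratio -0.03). The extremes were RPL34 (889 and 6207 counts, 0.13, 0.03 to 0.23) and RPL22 (594 and 3342, -0.18, -0.31 to -0.05). Of the small subunit proteins 13 of 32 were higher (median -0.0048), from RPS14 (-0.10) to RPS26 (0.079), and RPS4X had 3835 and 24772 counts (0.018). Ribosomal protein genes have many near-identical retrocopies, and how reads matching several places were counted is not given in the sources used here. The ribosomal proteins made for mitochondria in the cytosol were split evenly: 37 of 76 were higher, the median was -0.011, and their summed share of the library was 0.992-fold that undepleted (0.968 to 1.02). Of the initiation factors 24 of 46 were higher (median 0.0041). EIF4A1, the RNA helicase, had 2043 and 12637 counts (-0.04), and EIF4ENIF1, which carries eIF4E into the nucleus, was the only one past 1.5-fold, on 31 and 310 counts (0.65, 0.11 to 1.23). Among elongation and termination factors EEF1A1, which brings aminoacyl-tRNA to the ribosome, had 12249 and 78557 counts and a ratio of 0.0073. EEF1B2, a subunit of its exchange factor, was lowest (924 and 5184 counts, -0.19, -0.29 to -0.08).

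The nuclear genes for respiratory chain and ATP synthase subunits, whose products assemble with the mitochondrial ones, had medians slightly below 0. Of 38 nuclear complex I subunits 13 were higher and 25 lower, against 49.7% lower over all coding sequences. The median was -0.041 (-0.021 under TMM scaling) and the summed level 0.963-fold that undepleted (0.937 to 0.990). This interval covers counting error only, and the list was not set beside replicate pairs. NDUFV2 was lowest (148 and 757 counts, -0.32, -0.58 to -0.06) and NDUFV3 highest (40 and 332 counts, 0.38, -0.10 to 0.89). NDUFB8, with most counts, had 271 and 1846 (0.094). Of 20 nuclear subunits of complexes III, IV and V 9 were higher (median -0.024, and -0.0037 under TMM scaling), and their summed level was 0.996-fold that undepleted (0.966 to 1.03), with COX4I1 at 507 and 3042 counts (-0.09).

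Chaperones and metabolic enzymes stayed near 0. HSPA8, the constitutive HSP70, had 4391 and 28421 counts (0.021), and 9 of 14 cytosolic and mitochondrial chaperones were higher (median 0.017). In the endoplasmic reticulum 9 of 16 were higher (median 0.0095), with the lectin chaperone CANX at 743 and 4981 counts (0.071) and SDF2L1 lowest at 64 and 286 (-0.51, -0.91 to -0.10). Of the proteasome subunits 19 of 33 were higher (median 0.027), from PSMD9 (73 and 353 counts, -0.40) to PSMC1 (142 and 1065, 0.23). GAPDH had 3542 and 23751 counts (0.072, 0.021 to 0.12) while 10 of 15 glycolytic enzymes were lower (median -0.022). Genes of cholesterol synthesis (12 of 20 higher, median 0.0048) and of the integrated stress response (5 of 10 higher, median -0.022) were split evenly, and the stress response gene ASNS had 528 and 3694 counts (0.13).

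Replication-dependent histones were higher in 38 of 61, with a median of 0.028 and a summed level 1.02-fold that undepleted (1.01 to 1.03). The linker histone gene HIST1H1E had 2909 and 19658 counts (0.083, 0.027 to 0.14). HIST1H3D was highest, on 225 and 1882 counts (0.39, 0.19 to 0.60). Histone genes are near-identical to each other and HIST1H3D stands on 2 overlapping transcripts of the table, so its counts may belong in part to its copies. With FEN1, the nuclease that trims flaps at the replication fork (228 and 1795 counts, 0.30, 0.10 to 0.51), and GTF2I, a transcription factor (308 and 2372, 0.27, 0.10 to 0.45), it made up the 3 nuclear coding sequences past 1.2-fold higher. GTF2I, too, has near-identical partial copies nearby. The replication fork list around FEN1 had 13 of 29 higher (median -0.022), and MCM7, a helicase subunit, had 889 and 5423 counts (-0.06). ACTB, the cytoplasmic actin, had 5426 and 34680 counts (0.0024).

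Acidic histone chaperones and nucleolar proteins were lower in 15 of 16, against 49.7% of all coding sequences, with a median of -0.065. Their summed level was 0.941-fold that undepleted (0.922 to 0.961). PTMA (chr2:231708516-231713536), which encodes the very acidic prothymosin alpha, was lowest, with 1175 and 6164 counts, 1304 and 1072 CPM, and a log2 ratio of -0.28 (-0.37 to -0.19). Under TMM scaling its ratio was -0.26, and it then stood just inside 1.2-fold. PTMA has processed copies elsewhere in the genome, so its counts depend on how reads matching several places were treated. ANP32E (206 and 1123 counts, -0.23, -0.44 to -0.0057) and ANP32A (308 and 1708, -0.20, -0.38 to -0.02) of the acidic ANP32 family were next and are the other members whose interval excluded 0. PTMS, the closest relative of PTMA, had 131 and 792 counts and a ratio of -0.08 (-0.35 to 0.20), an interval that holds the -0.28 of PTMA. Purines made up 80.3% of the PTMS coding sequence and 74.4% of that of PTMA. Whether the purine share bears on either ratio was not tested. The nucleolar proteins NPM1 (2800 and 17220 counts, -0.05) and NCL (1802 and 10947, -0.07) had intervals that reached just past 0, and NOP58 was the only member higher (214 and 1388, 0.024). The summed log2 ratio of the list was -0.087 in the pair and -0.065 without PTMA. Replicate pairs of the other tables differed by 0.0021 to 0.053 in this sum and by 0.0089 to 0.18 in PTMA, both below the values of the pair. PTMA and the list are singled out here as the lowest of this pair, so they would tend to exceed such values. The comparison is a description only. For PTMA against undepleted, Ribo-Zero Gold gave -0.92 (261 counts undepleted and 391 depleted, in 2 libraries a side), RiboCop -0.096 and riboPools 0.081.

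Splicing proteins of the hnRNP and SR families were lower in 24 of 35, against 49.7% of all coding sequences. Their median was -0.029 (-0.0086 under TMM scaling) and their summed level 0.967-fold that undepleted (0.952 to 0.982, counting error only). HNRNPA2B1 had 1712 and 9584 counts (-0.19, -0.26 to -0.11) and HNRNPUL1 318 and 1721 (-0.24). HNRNPCL1 was lowest on 126 and 564 counts (-0.51, -0.79 to -0.22), and it is a near-copy of another family member, so its reads cannot be placed with certainty. HNRNPU, with most counts, was at 0.014. The remaining well-covered coding sequences at the low end were BEX3 (368 and 1959 counts, -0.26), the heterochromatin protein CBX3 (311 and 1695, -0.23), the exon junction protein RBM8A (327 and 1808, -0.21) and SSBP1, which binds mitochondrial single-stranded DNA (309 and 1717, -0.20). All of these lay within 1.2-fold.

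**Figure D4:**
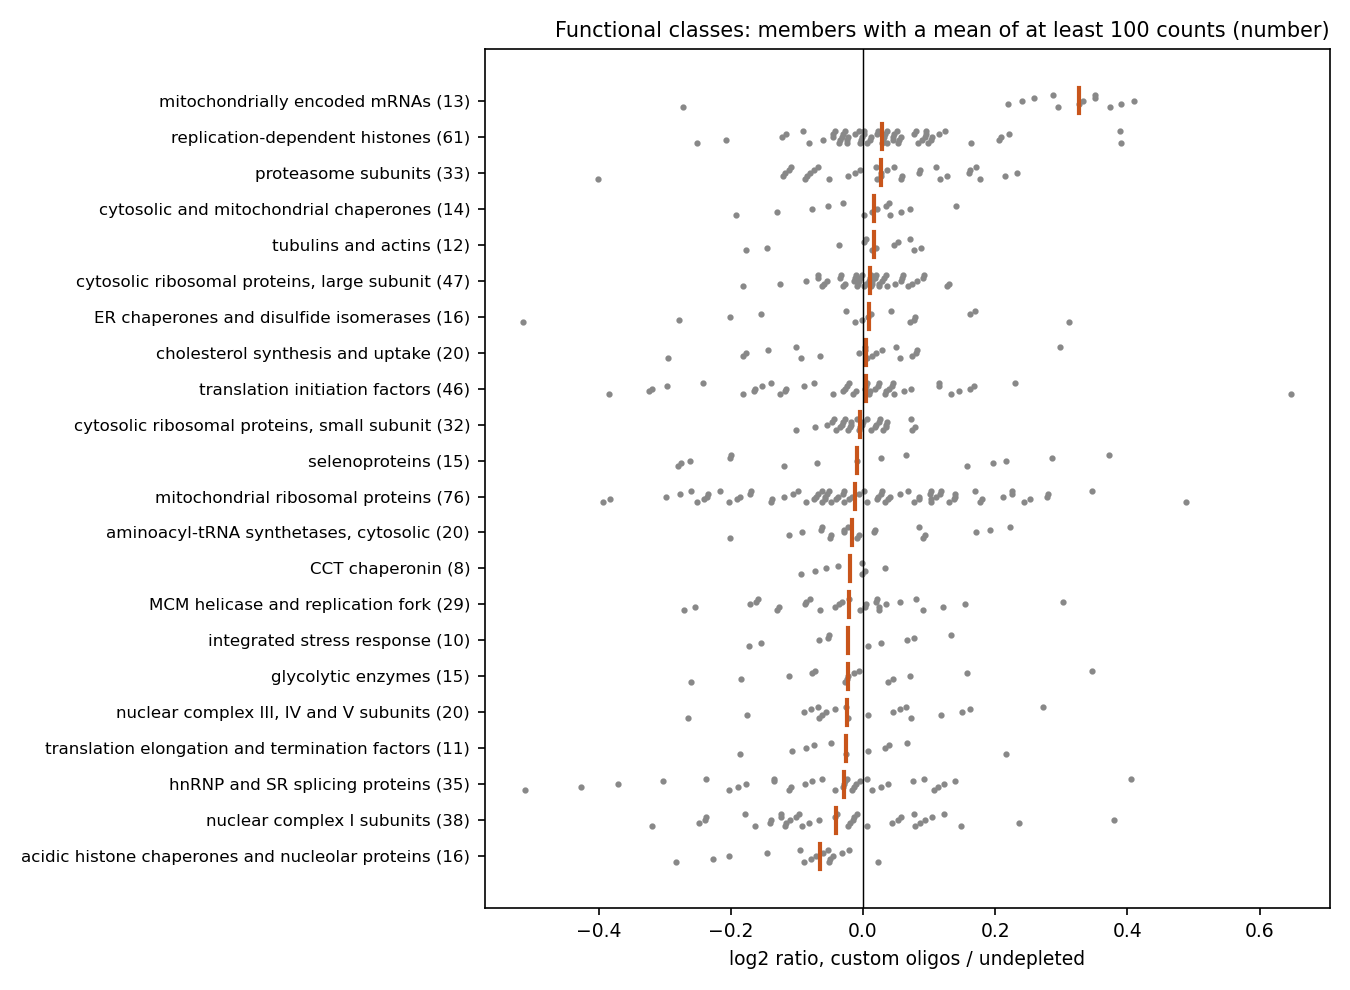
Log2 ratio of custom oligos over undepleted (x axis) for the members of each functional class with a mean of at least 100 counts (grey points, number in brackets), with the class median (orange bar). The mitochondrially encoded mRNAs stand at a median of 0.33, and the medians of the other 21 classes lie between -0.065 and 0.028.

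ABCA13 (chr7:48171460-48647495) encodes a lipid transporter of the ABC family and had 383 and 1281 counts, or 425 and 223 CPM, a log2 ratio of -0.93 (-1.10 to -0.76). It was the only coding sequence averaging 500 counts or more past 1.5-fold, in either direction. It is named because its ratio was seen to stand apart. KCNH8, CCNC and FAM53A, which had isolated high counts in nuclease-depleted libraries of the other tables, did not stand out here: KCNH8 had 10 and 65 counts (11.1 and 11.3 CPM), CCNC 39 and 253 (43.3 and 44.0 CPM) and FAM53A 0 and 9.

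The deeper library detected more coding sequences. Of 19478 in the table, 12414 had at least 1 count undepleted and 14185 with custom oligos, which is 63.7% and 72.8%. At a minimum of 10 counts the numbers were 8282 and 11476, and at 100 counts 1733 and 6963, which is 4.02-fold more. When the custom oligo library was thinned by calculation to the 900763 counts of the undepleted one, 12411.6 were expected at 1 count or more, 8281.7 at 10 and 1724.9 at 100, all within 10 of the undepleted numbers. At a minimum of 4 counts 10219.1 were expected and 10194 seen. At equal depth the numbers detected were thus nearly equal. The number of reads sequenced and the share on rRNA are not given in the sources used here, so the part of the 6.38-fold that comes from depletion and the part from more sequencing cannot be told apart.

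The depth also narrowed the counting intervals. For coding sequences with a mean of 10 to 100 counts, the upper bound of the level was 3.58 times the lower bound undepleted and 1.62 times with custom oligos, as medians. At 100 to 1000 counts these were 1.70 and 1.23, and at 1000 or more 1.19 and 1.07.

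**Figure D5:**
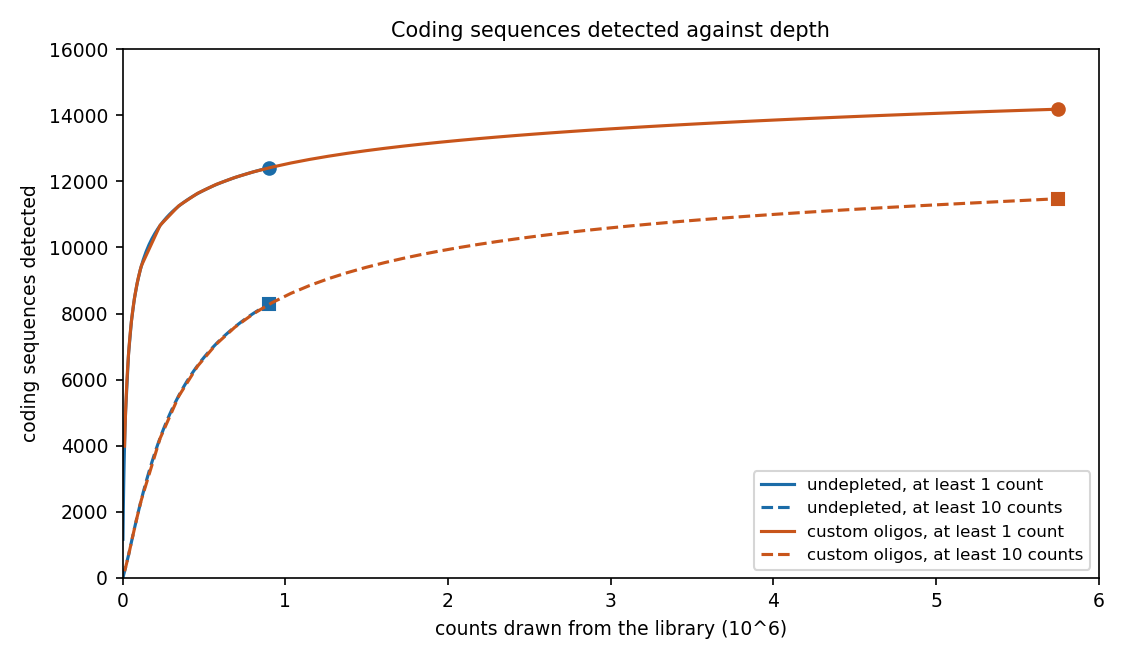
Coding sequences detected (y axis) against the number of counts drawn from each library (x axis), calculated without random draws, for at least 1 count (solid) and at least 10 counts (dashed). Points mark the libraries as deposited, and the curves of both libraries lie on each other up to the 900763 counts of the undepleted one.

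Coding sequences with 0 counts undepleted and at least 10 with custom oligos numbered 169 (0.868%). They had 10 to 34 counts with a median of 14, or 2.44 CPM. When the pooled counts of each coding sequence were divided between the libraries in the ratio of their totals, 158.4 such cases were expected from the library totals alone. A count of 0 allows up to 3 counts, or 3.33 CPM, in the undepleted library, and 37 of the 169 were above that. With 1 count or more in place of 10, 1908 were seen (9.8%) and 1910.1 expected.

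The highest of the newly detected were GMPR, a purine nucleotide reductase, and PEX6, an ATPase of peroxisome assembly, with 34 counts each. Their level was 5.92 CPM (4.10 to 8.27), which is 1.78-fold the 3.33 CPM that a 0 undepleted allows. All the newly detected were chosen for that 0, so this fold is not a measured difference. ADAMTS3, a procollagen protease, and FRMD4A followed with 33 counts, then ING2, a chromatin reader, and TMEM108 with 32. ADCYAP1R1, the PACAP receptor, had 31, the growth factor GDF11 29, and DDN and the homeobox factor LMX1B 28 each. DGKQ, a diacylglycerol kinase, FAM160A1 and PQLC3 had 26 each and share the last place. At the level of these genes the undepleted library would have been expected to hold 4.1 to 5.3 counts, and it held 0.

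Low-abundance families gained members. Of 510 zinc finger genes 411 were detected undepleted and 483 with custom oligos, and those with at least 10 counts went from 129 to 364. Newly detected by the rule above were 14 of the 510 (2.75%, against 0.868% of all coding sequences), led by ZNF300 and ZNF672 with 25 counts each. Homeobox, SOX, PAX, FOX and GATA factors went from 108 to 127 of 160. Potassium, sodium and calcium channel genes (KCN, SCN and CACN symbols, not all voltage-gated) went from 38 to 75 of 134. Protocadherins went from 18 to 42 of 66 and receptor tyrosine kinases from 33 to 44 of 52. Solute carriers went from 191 to 228 of 345, with SLC10A7 newly at 24 counts. Other families stayed rare: 6 of 390 odour and taste receptors had any count with custom oligos against 1 undepleted, 15 of 104 interleukins, chemokines and interferons against 5, and 9 of 94 keratin-associated proteins against 2. None of the 390 receptors reached 10 counts, and 383 were at 0 in both libraries. Thinned to the undepleted depth, 408.8 zinc finger genes were expected, 40.1 of the channel genes, 19.6 protocadherins and 0.94 odour and taste receptors. Each of these was within 3 of the undepleted number. For G protein-coupled receptors other than those of odour and taste, 36.3 were expected and 40 seen undepleted.

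The reverse, at least 1 count undepleted and 0 with custom oligos, was seen for 137 coding sequences, and 130 of these rested on 1 count. Dividing the pooled counts by the library totals gave 131.9. PPP1R16B, a phosphatase regulator, had 4 counts undepleted and 0 with custom oligos. Its undepleted level was 8.51 times the limit of a 0 with custom oligos, taken as 3 counts. PPP1R16B rests on so few counts that its undepleted level runs from 1.21 to 11.4 CPM, so 8.51 is not a minimum. A further 5156 coding sequences were at 0 in both libraries.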

How the data were processed

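Both libraries are ribosome footprints of HEK293FT cells, 1 library a group. Per the file headers, the deposited tables hold counts for 19478 coding sequences, 1 transcript a row, and the deposited RPM values for the same rows; RPM equalled the count over the library total to within 3.6e-12 and was used only for that check. The submitters' processing notes name CASAVA 1.8, STAR and GRCh38/hg38. The counting tool, strand use, duplicates and reads matching several places are not given in the sources used here, and PCR copies are not independent molecules, so intervals and floors (3 counts) cover counting error only.

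Levels were scaled to the library total. Ratios have exact conditional binomial (Clopper-Pearson) intervals and levels exact Poisson intervals (scipy 1.17.1, numpy 2.4.6, pandas 2.3.3, Python 3.11.15). The interval code was tested on simulated data. Detection at equal depth was computed by hypergeometric rarefaction, without random draws. Genes at a mean of at least 100 counts were called at 1.5-fold and those at 1000 at 1.2-fold. TMM (edgeR 4.0.16) and DESeq2 1.42.0 size factors (R 4.3.3) were scaling alternatives only. Positions and sequences are from GENCODE release 29 on GRCh38 (97.5% of identifiers matched, 97.3% with a coding sequence), which may not be the authors' annotation. There were 31 symbols on more than 1 transcript.

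The members and lists were chosen with earlier results of these data known. Named genes are the 13 mitochondrial mRNAs, in each list the gene with most counts and the highest and lowest ratio, the 8 highest and 8 lowest at a mean of at least 1000, the 12 newly detected with most counts with ties, transcripts lost with at least 4 counts, 3 genes that spiked elsewhere, markers, and up to 2 newly detected per low-abundance family; not every one is printed, and 2 that met this rule are not reported here. ABCA13, ANP32E, GTF2I, NCL and PTMS were named after their values were seen.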

Additional observations from a re-analysis of the deposited data

How the results depend on the processing

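Of 182 values recomputed under other settings, 163 stayed the same by the limits set and 19 moved. Of the 182, 17 were class medians that changed sign, in 11 of 24 lists (9 functional and 2 low-abundance), with no median involved past 0.036 in size. The number at least 1.5-fold higher went from 51 to 591 at a mean of at least 20 counts, to 1132 with at least 1 count in each library, and to 0 at a mean of at least 500 or at a fold of 2. The number lower went from 17 to 364, 1399, 1 and 0 under the same settings. At 1.2-fold, 25 were higher and 12 lower at a mean of at least 500 and 6 were higher at 2000, and TMM scaling left 0 lower. Medians moved to 0.031 (TMM) and 0.025 (DESeq2 size factors) for large ribosomal subunit proteins, to 0.048 for histones and to -0.045 for acidic chaperones under TMM. Newly detected coding sequences numbered 1317 with up to 3 counts allowed undepleted, 1908 from 1 count and 37 from 20. The expectation from pooled counts, 158.4, was added after seeing the data; thinning the custom oligo library gave 113.9, as it takes its counts to be free of error. Scaling moved all ratios by 0.0034 to 0.020. No paired analysis was possible because each group has 1 library, and for the same reason no library could be left out.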
